A study of Mus musculus with 8 samples.

Results

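The SLC25 family of carriers was followed in liver RNA from mice that lack both mitoferrins in hepatocytes. Members were all genes of the deposited table whose symbol starts with Slc25a and a number, which gave 43 of 15864 genes, and 42 of them had enough counts to be tested. Slc25a18, Slc25a31, Slc25a41 and Slc25a54 were not analysed here. Knockout (KO) livers carried Alb-cre, a Cre recombinase transgene driven by the albumin promoter of hepatocytes, together with loss of Mfrn1 (Slc25a37) and Mfrn2 (Slc25a28), and were labelled Alb-cre Mfrn1-/- Mfrn2 -/- (n = 5). Control livers were labelled WT and were described as matched for age, with no mention of Cre (n = 3). Thus presence of the transgene and loss of the carriers cannot be told apart. Both groups ate standard chow, and the sources used here give no age, sex or strain. The loss is described as specific to hepatocytes, but the labels do not say whether each allele depends on Cre, so the state of both genes in other liver cells is not known here. The question addressed is whether the transcript of any other carrier was higher in livers without the mitoferrins.

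SLC25 proteins are nuclear-encoded carriers, most of which span the inner mitochondrial membrane and exchange metabolites, nucleotides, cofactors or ions between cytosol and matrix. Mitoferrins import iron, which the matrix builds into heme and iron-sulfur clusters. Mitoferrin 1 is best known from developing red cells and mitoferrin 2 from other tissues, and in liver the rest of the family serves the urea cycle, gluconeogenesis, fatty acid oxidation and oxidative phosphorylation.

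The mitoferrin genes are paralogs, so their coding sequences were compared to see whether reads of one could be counted for the other. A stretch of 75 coding bases around their longest shared run is shown from the annotated transcripts (GENCODE M21, GRCm38, sense strand, both genes on the minus strand), with capitals where the genes carry the same base.
Slc25a28: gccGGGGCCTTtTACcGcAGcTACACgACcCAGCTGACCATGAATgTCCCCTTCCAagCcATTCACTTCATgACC
Slc25a37: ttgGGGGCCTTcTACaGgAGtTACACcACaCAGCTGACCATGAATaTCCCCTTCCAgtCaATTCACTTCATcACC
This stretch runs from base 661 to 735 of the Slc25a28 coding sequence and from base 580 to 654 of that of Slc25a37, and 61 of its 75 bases are the same. Over the whole coding sequences, 72.1% of 1008 aligned bases were identical and no shared run exceeded 15 bases. No window of 50 bases in Slc25a28 transcripts occurred in a transcript of another annotated gene. In Slc25a37, 6.99% of such windows also occurred, in the same direction, in transcripts of Gm16867, a predicted gene. A further comparison with the opposite strand of other genes' transcripts gave 5.52% for Slc25a37. Among the other carriers, this overlap on the same strand was 33.8% for Slc25a5, which has processed pseudogenes. It was at most 6.70% for the remaining members, so by this measure alone the counts of Slc25a5 are the most open to shared reads. On the opposite strand the overlap reached 25.1% for Slc25a35 and 12.6% for Slc25a33, and the sources used here do not say whether counting used the strand.

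Read counts per gene were available for 8 libraries. KO libraries held 24600340 to 31887401 counts and WT libraries 35484499 to 43072524 counts, so every WT library was deeper than every KO library. The labels number the samples as replicates without stating that each is a separate animal, and p-values therefore measure the spread between these samples, which may be technical. KO replicates 1 and 2 stood apart in clock genes: Dbp, an output gene of the liver clock, was at 69.3 and 54.5 CPM (counts scaled to a common library size) there, against 1.76 to 2.41 CPM in KO replicates 3 to 5 and 1.23 to 2.93 CPM in WT livers. Levels also drifted with gene length, since the deviation of each library from the mean correlated with length across genes (which are not independent replicates) at a Spearman's rho of 0.169, 0.217 and 0.213 in KO replicates 1, 2 and 5 and -0.261 to -0.0414 in the other libraries. In whole liver, fewer cells of a type and less RNA per cell cannot be told apart. The summed level of 5 hepatocyte markers, led by albumin, was 86491 to 97720 CPM in KO livers and 87560 to 92609 CPM in WT livers.

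Mitoferrin 2 transcripts fell to a small remainder in the knockouts, and mitoferrin 1 had lower values that passed by DESeq2 and not by edgeR. The labels do not say which exons were removed, so counts over whole genes can include transcripts that lack them. Slc25a28 (ENSMUSG00000040414, minus strand of chromosome 19, 43663822 to 43674881, mm10) was at 0.753, 0.731, 0.592, 0.888 and 0.662 CPM in KO replicates 1 to 5, against 18.1, 16.6 and 16.6 CPM in WT replicates 1 to 3. The groups were far apart and each was tight. Its log2 fold change was -4.56 ± 0.128 (SE, n = 5 and 3, adjusted p by edgeR = 1.92e-07), and it was 1 of 16 genes of 14664 tested that passed an adjusted p of 0.05, or 0.109% of the genes (0.0477% higher and 0.0614% lower in KO). Slc25a37 (ENSMUSG00000034248, minus strand of chromosome 14, 69241848 to 69285112, mm10) was at 10.6, 8.74, 5.76, 8.15 and 8.35 CPM in KO livers, against 17.4, 12.9 and 23.0 CPM in WT livers. Every KO liver lay below every WT liver, as 3.74% of all tested genes did. This difference, -1.09 ± 0.209 (SE) on the log2 scale, missed the threshold in edgeR (adjusted p = 0.104) and passed in DESeq2 (adjusted p = 0.000337), where 1.62% of the genes passed. An exact two-sided permutation test of the CPM values (56 arrangements) gave p = 0.0179 for each mitoferrin, the smallest this design allows. The authors' deposited table gives log2 fold changes of -3.70 for Slc25a28 and -0.82 for Slc25a37, smaller in size than those from the counts. Its score for Slc25a37, read as a DESeq2 adjusted p, was 0.000326.

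**Figure D1:**
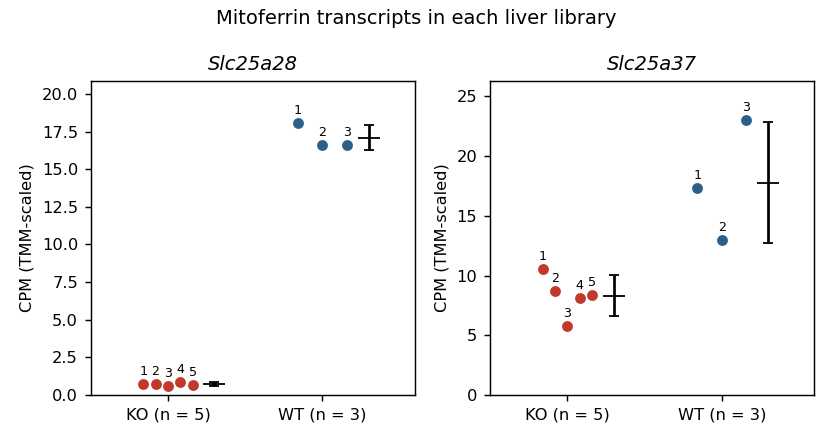
Normalised level (CPM, scaled by TMM factors) of Slc25a28 and Slc25a37 in each library, KO left of WT, with replicate numbers at the points and the mean ± SD as black bars. Slc25a28 lies below 1 CPM in all 5 KO libraries, while Slc25a37 keeps 5.76 to 10.6 CPM there against 12.9 to 23.0 CPM in WT.

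Levels of different genes can be set beside each other only per length, for which the authors' FPKM values (counts scaled by gene model length and library total) were used. In WT liver the main mitoferrin transcript was Slc25a28, at 11.3 ± 0.807 FPKM against 2.95 ± 0.846 FPKM for Slc25a37 (SD, n = 3), or 79.4% ± 4.82 of their sum. In KO liver the order was turned round, with 0.480 ± 0.0792 FPKM for Slc25a28 and 1.39 ± 0.303 FPKM for Slc25a37 (SD, n = 5), which made Slc25a37 74.0% ± 3.45 of the sum. The sum of the 2 transcripts was 2.27, 1.98, 1.31, 1.95 and 1.81 FPKM in KO replicates 1 to 5, against 15.2, 12.9 and 14.7 FPKM in WT replicates 1 to 3. Thus 13.1% of the WT mitoferrin transcript level, counted over whole genes, was left, most of it Slc25a37. This remainder can include transcripts that lack the removed exons. These shares depend on the gene model lengths in the deposited table, 1514 bases for Slc25a28 and 6021 for Slc25a37.

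Slc25a37 is also expressed in red-cell precursors, in which albumin is not expressed. Of 8 erythroid marker genes 7 were in the table. Their summed level, led by Hbb-bs, was 399, 97.5, 169, 361 and 310 CPM in KO replicates 1 to 5. It was 192, 290 and 206 CPM in WT replicates 1 to 3. Of the 6 erythroid markers tested, 4 had higher and 2 lower estimates in KO, and none passed by edgeR. The 5 Kupffer cell and macrophage markers found (of 6) summed to 329 to 605 CPM in KO livers and 305 to 549 CPM in WT livers, and the 5 sinusoidal endothelial markers to 285 to 370 CPM in KO livers and 289 to 375 CPM in WT livers. Both ranges overlapped. The part of these cells in the Slc25a37 level left in knockouts was not tested.

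None of the other 40 tested carriers passed in either direction, by edgeR, DESeq2 or limma-voom (which called 0.123% of all genes). By edgeR, 2 of the 40 had an unadjusted p under 0.05, which is 5% beside 10.4% of all genes tested. The smallest adjusted p was 0.337 by edgeR and 0.133 by DESeq2. In the authors' deposited table no other carrier was under 0.05, with Slc25a51 lowest at 0.134. That table comes from the same counts and, per the submitters' notes, DESeq2, so it is not separate evidence. Estimates were higher in KO for 17 carriers and lower for 23, with a median log2 fold change of -0.03 beside 0.00 over all genes tested and a median size regardless of sign of 0.16 beside 0.13. Leaving out single libraries, KO replicates 1 and 2 together, or all samples whose titles do not begin with 82 (KO replicates 1 to 3) brought no other carrier past the threshold.

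How much of a rise these data still allow was read from the 95% intervals of the fold changes. These intervals are not adjusted for the number of genes and come from a fit with group as its only term. How well they hold for these data was not shown. For 36 of the 40 carriers the interval ended below a 2-fold rise (90.1% of all genes), and for 28 it ended below a 1.5-fold rise (74.1% of all genes). The interval lay within 1.5-fold in both directions for 23 of the 40, against 60.7% of all genes. Intervals that reached a 2-fold rise were those of Slc25a47, Slc25a25, Slc25a27 and Slc25a2. Slc25a27 and Slc25a2 were both under 1 FPKM in either group. Of the 12 carriers whose intervals reached a 1.5-fold rise, Slc25a51 had an interval above 1 and the others had intervals that also held no change.

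**Figure D2:**
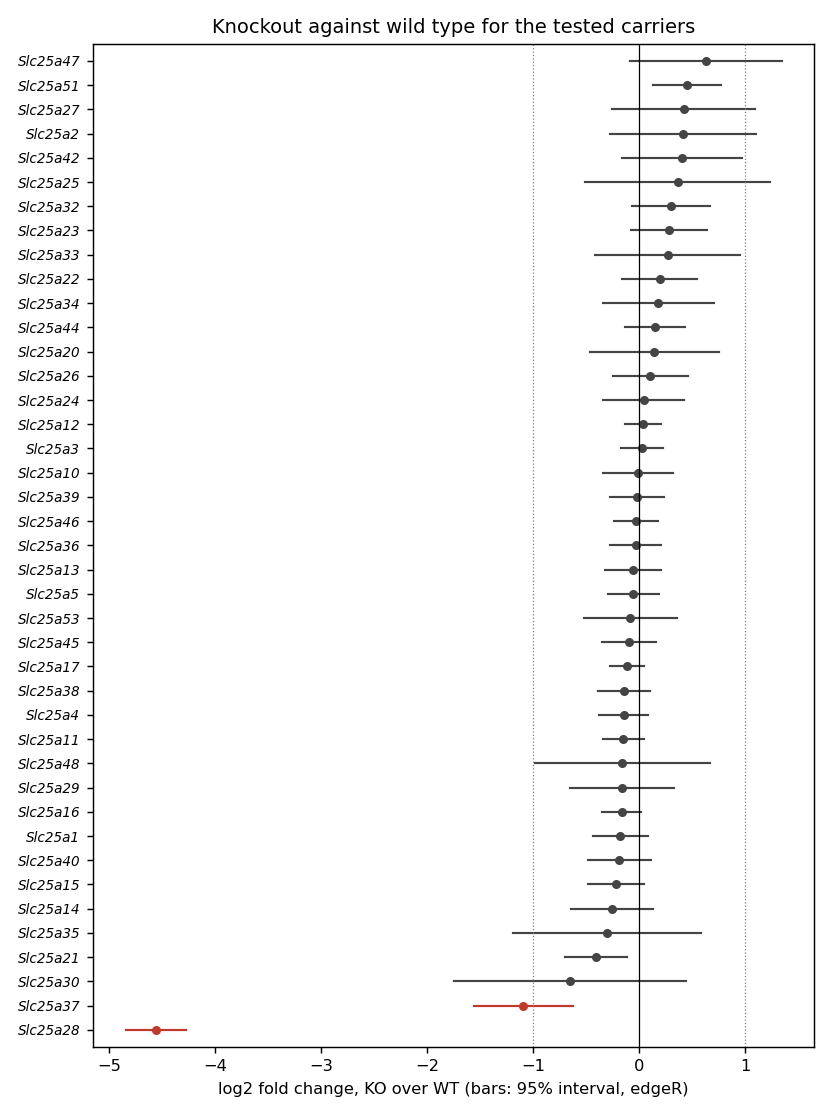
Log2 fold change of KO over WT for 41 of the 42 tested carriers (points) with 95% intervals from the edgeR fit (lines), ordered by estimate, deleted genes in red and dotted lines at 2-fold. Besides Slc25a28 and Slc25a37, the intervals of Slc25a51 (1.09 to 1.70-fold) and Slc25a21 (0.616 to 0.922-fold) are the ones that leave out 0, without adjustment for the number of genes.

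Carriers tied to heme and glutathione were the nearest to iron use in the matrix, and none of the 3 differed past the threshold. Slc25a38, a glycine carrier needed for heme synthesis in red cells, was at 17.0, 16.3, 20.4, 20.9 and 17.1 CPM in KO livers and 20.0, 22.2 and 18.8 CPM in WT livers (adjusted p by edgeR = 0.677). Its fold interval ran from 0.762 to 1.07. Slc25a39, which brings glutathione into mitochondria, was at 238, 265, 323, 281 and 271 CPM in KO livers and 306, 270 and 263 CPM in WT livers, a log2 fold change of -0.02 ± 0.112 (SE, adjusted p by edgeR = 0.965). The groups overlapped fully, and a rise beyond 1.17-fold lay outside the interval. Its paralog Slc25a40 was a minor transcript at 3.25, 4.15, 3.32, 3.51 and 3.15 CPM in KO livers and 4.04, 4.00 and 3.83 CPM in WT livers (adjusted p by edgeR = 0.657). Slc25a3, the phosphate carrier, which also moves copper, was among the steadiest, at 203, 208, 240, 212 and 200 CPM in KO livers and 214, 209 and 205 CPM in WT livers (fold interval 0.887 to 1.17).

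Cofactor carriers held the member with the most regular higher level. Slc25a51 (ENSMUSG00000045973, chromosome 4, 45395923 to 45408766), which imports NAD+ into mitochondria, was at 52.8, 51.7, 43.7, 47.0 and 66.5 CPM in KO livers and 43.7, 38.2 and 33.1 CPM in WT livers. On this scale all 5 KO livers were above all 3 WT livers, and 3.2% of all genes were placed this way. However, KO replicate 3 and WT replicate 1 agree to 3 digits. By the authors' FPKM they were at 7.68 and 8.11, so the groups overlapped there. The log2 fold change was 0.45 ± 0.143 (SE, adjusted p by edgeR = 0.338) and lay between 0.35 and 0.57 over 19 other fits, in none of which it passed. KO replicates 1, 2 and 5, where it was highest, are the libraries whose levels increased with gene length. With that trend removed the log2 fold change was 0.42 ± 0.137 (SE, adjusted p by edgeR = 0.349).

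Slc25a42, a carrier of coenzyme A, was at 37.9, 42.3, 43.03, 33.1 and 47.3 CPM in KO livers and 21.7, 22.4 and 48.5 CPM in WT livers. WT replicate 3 was above every KO liver and the other WT livers were below every KO liver. The size of the estimate therefore depends on that library, while its sign was the same in all 19 other fits. The log2 fold change was 0.40 ± 0.253 (SE, adjusted p by edgeR = 0.610) with all libraries and 0.90 (adjusted p by edgeR = 0.0983) without WT replicate 3. Slc25a32, linked to transport of folate and FAD, was at 29.8, 31.2, 22.2, 18.0 and 26.2 CPM in KO livers and 20.1, 20.1 and 22.1 CPM in WT livers, overlapping through KO replicate 4 (adjusted p by edgeR = 0.558). Its log2 fold change of 0.30 was 0.11 without KO replicates 1 and 2. Slc25a16, which has been linked to coenzyme A, was at 63.0, 62.9, 71.5, 60.5 and 62.8 CPM in KO livers and 71.7, 67.4 and 76.9 CPM in WT livers (adjusted p by edgeR = 0.521), with KO replicate 3 alone inside the WT range. Slc25a26, the S-adenosylmethionine carrier, had a log2 fold change of 0.11 (adjusted p by edgeR = 0.854).

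Carboxylate carriers, several of which feed fatty acid synthesis, gluconeogenesis and the malate shuttles, had lower estimates in 4 of 4 members and no call. The estimate of Slc25a10 was close to no change and kept its sign in 11 of 19 other fits. The share of all genes with lower estimates is not given here. Slc25a21 (ENSMUSG00000035472, chromosome 12, 56712634 to 57197472), which moves oxodicarboxylates from lysine and tryptophan breakdown, was at 13.1, 12.1, 10.1, 8.72 and 10.5 CPM in KO livers and 14.4, 14.1 and 15.01 CPM in WT livers. Here all KO livers were below all WT livers, as for 3.74% of all genes tested. The log2 fold change was -0.41 ± 0.130 (SE, adjusted p by edgeR = 0.337) and ranged from -0.59 to -0.30 over the other fits. Slc25a11, the oxoglutarate and malate carrier, was at 88.1, 76.6, 84.2, 78.1 and 78.9 CPM in KO livers and 99.2, 87.5 and 83.4 CPM in WT livers (adjusted p by edgeR = 0.586). Slc25a1, the citrate carrier, and Slc25a10, the dicarboxylate carrier, had log2 fold changes of -0.18 ± 0.117 and -0.01 ± 0.147 (SE, adjusted p by edgeR = 0.624 and 0.986).

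Among 7 amino acid carriers, those of the urea cycle were abundant and did not pass. Slc25a15, which exchanges ornithine and citrulline, was at 403, 423, 363, 385 and 438 CPM in KO livers and 522, 500 and 384 CPM in WT livers (log2 fold change -0.22 ± 0.120, SE, adjusted p by edgeR = 0.552). WT replicate 3 lay among the KO livers. Slc25a13, the liver aspartate and glutamate carrier (citrin), was at 279, 274, 330, 271 and 256 CPM in KO livers and 313, 248 and 318 CPM in WT livers (fold interval 0.801 to 1.16). Its paralog Slc25a12 varied least, with 19.1 ± 0.750 CPM in KO livers and 18.6 ± 0.898 CPM in WT livers (SD, n = 5 and 3). The glutamate carrier Slc25a22, the branched-chain amino acid carrier Slc25a44, the basic amino acid carrier Slc25a29 and the ornithine carrier Slc25a2 had log2 fold changes of 0.19, 0.15, -0.16 and 0.41 (adjusted p by edgeR from 0.678 to 0.835).

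Adenine nucleotide carriers were split, with 3 estimates higher, 3 lower and no call. Slc25a5, the main ADP/ATP exchanger of liver by level, was at 143, 140, 173, 135 and 130 CPM in KO livers and 152, 158 and 141 CPM in WT livers (fold interval 0.815 to 1.13), and Slc25a4, its paralog of muscle and heart, at 7.22 ± 0.659 CPM in KO livers and 7.99 ± 0.083 CPM in WT livers (SD, n = 5 and 3). Slc25a23, a carrier of ATP-Mg and phosphate, was at 69.1, 69.0, 50.4, 64.7 and 79.9 CPM in KO livers and 46.6, 51.1 and 67.4 CPM in WT livers (adjusted p by edgeR = 0.580). The related Slc25a25 varied more within groups than between their means, at 113, 325, 342, 176 and 313 CPM in KO livers and 228, 107 and 258 CPM in WT livers (adjusted p by edgeR = 0.781). Slc25a24, of the same kind, and Slc25a17, the peroxisomal member, had log2 fold changes of 0.04 and -0.12 (adjusted p by edgeR = 0.956 and 0.615). The pyrimidine nucleotide carriers Slc25a33 and Slc25a36 had log2 fold changes of 0.27 and -0.03 (adjusted p by edgeR = 0.795 and 0.941).

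Slc25a47, a carrier found mainly in liver, had the highest positive estimate without a call. It was at 471, 840, 999, 399 and 498 CPM in KO livers and 396, 309 and 541 CPM in WT livers. KO replicates 2 and 3 were above every WT liver and the other 3 KO livers lay within the WT range. Its log2 fold change was 0.63 ± 0.320 (SE, adjusted p by edgeR = 0.527), and 0.11 in the samples with titles beginning with 82, where KO replicates 4 and 5 stand against the WT livers. Slc25a20, the carnitine and acylcarnitine carrier of fatty acid oxidation, was at 101, 108, 219, 119 and 93.7 CPM in KO livers and 114, 95.2 and 139 CPM in WT livers. KO replicate 3 alone set its estimate, since the log2 fold change was 0.14 with that library and -0.14 without it (adjusted p by edgeR = 0.895 and 0.696).

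Slc25a30, an uncoupling-protein relative also called kidney mitochondrial carrier protein, had the lowest estimate among the carriers that were not deleted and the widest spread within WT livers. Its level was 17.3, 19.7, 42.8, 26.4 and 25.6 CPM in KO livers and 12.7, 31.1 and 80.4 CPM in WT livers, a range of 6.35-fold within WT. Its log2 fold change of -0.65 ± 0.489 (SE, adjusted p by edgeR = 0.679) was 0.28 without WT replicate 3. Slc25a30 lies 6.48 Mb from Slc25a37 on chromosome 14, and the other carrier on a chromosome with a deleted gene, Slc25a45, lies 37.8 Mb from Slc25a28 and had a log2 fold change of -0.10 (adjusted p by edgeR = 0.800). Slc25a46, which acts on the outer membrane in mitochondrial shape, was at 55.1 ± 3.60 CPM in KO livers and 56.3 ± 5.72 CPM in WT livers (SD, n = 5 and 3). Log2 fold changes of Slc25a14, Slc25a27, Slc25a34, Slc25a35, Slc25a48 and Slc25a53, to which no substrate is assigned here, were -0.26, 0.42, 0.18, -0.31, -0.16 and -0.08 (adjusted p by edgeR from 0.643 to 0.913). Slc25a43 was too sparse for the test, with 12 counts over the KO libraries and 19 over the WT libraries.

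**Figure D3:**
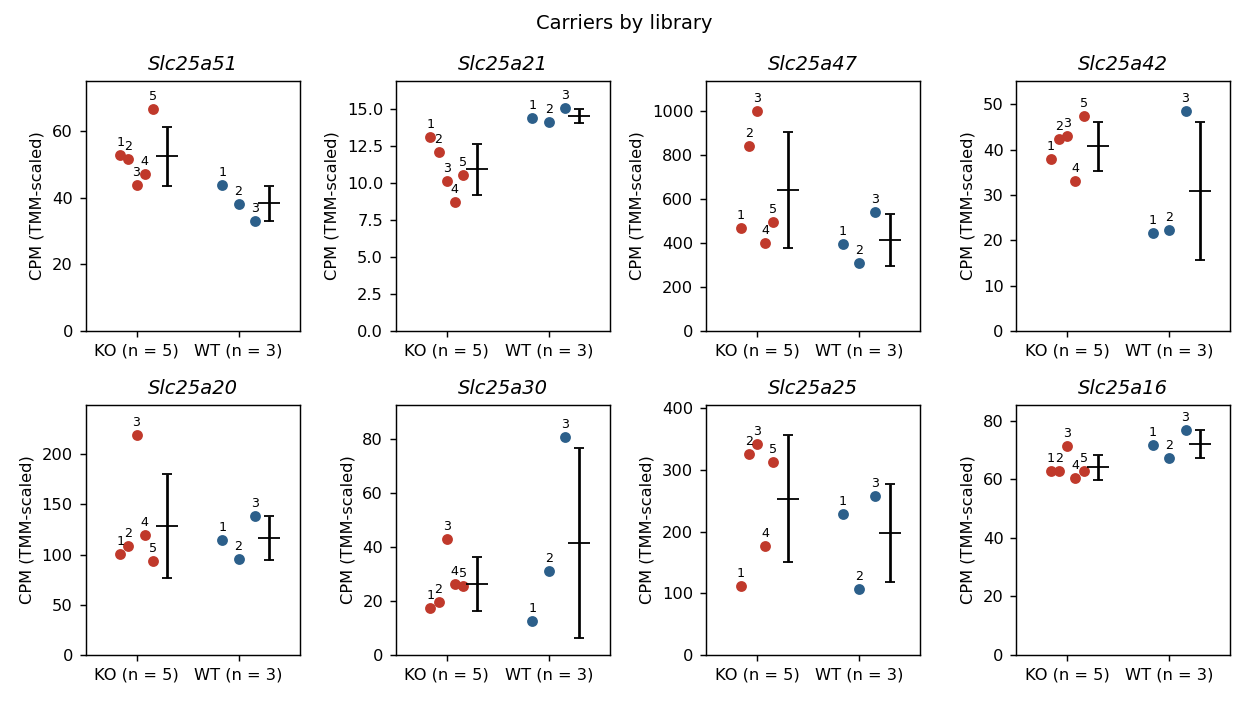
Level in CPM (scaled by TMM factors) of 8 carriers in each library, KO left of WT, with replicate numbers at the points and the mean ± SD as black bars. Slc25a21 separates the groups, with KO below WT as for 3.74% of all genes tested. Slc25a51 separates them on this scale by a near tie, and not by FPKM. Among single libraries, KO replicate 3 for Slc25a20 (219 CPM) and for Slc25a16 (71.5 CPM) stands away from its group. So does WT replicate 3 for Slc25a30 (80.4 CPM) and Slc25a42 (48.5 CPM).

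The order of the carriers by level was nearly the same in both groups. Across the 41 members other than the mitoferrins, mean FPKM in KO and WT livers had a rank correlation of 0.994, a description over genes that share libraries. By WT level the family was led by Slc25a47, Slc25a15, Slc25a39, Slc25a1, Slc25a13 and Slc25a5, which made up 67.1% of the family's summed FPKM in KO livers and 64.4% in WT livers. Slc25a47 alone was at 405 ± 162 FPKM in KO livers and 263 ± 74.4 FPKM in WT livers (SD, n = 5 and 3). At the low end 8 members were under 1 FPKM in WT livers. Mitoferrin transcripts together were 0.147% ± 0.0439 of the family sum in KO livers and 1.17% ± 0.0464 in WT livers. The sum without them was 1164, 1497, 1619, 1116 and 1199 FPKM in KO replicates 1 to 5 and 1250, 1057 and 1298 FPKM in WT replicates 1 to 3, and these ranges overlapped.

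**Figure D4:**
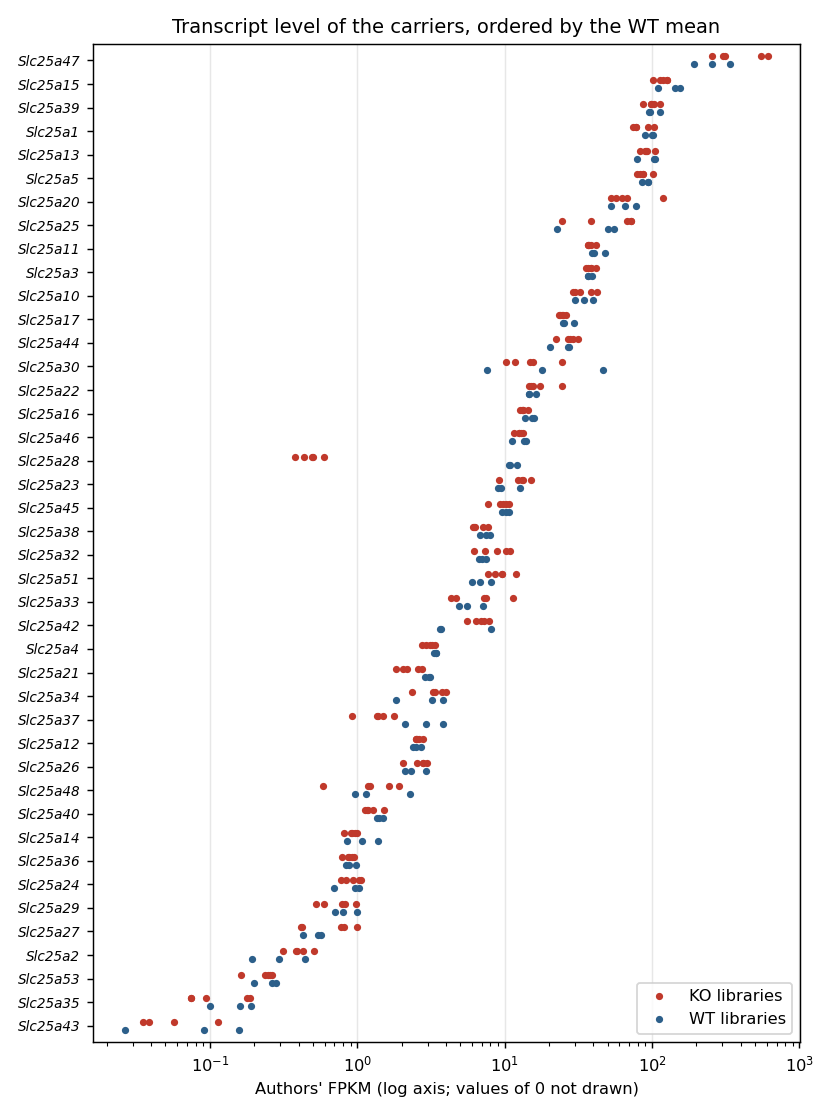
Authors' FPKM of 42 of the 43 carriers in each library on a log axis, ordered by the WT mean, with KO points above WT points in each row. Slc25a28, at 0.480 FPKM on average in KO and 11.3 FPKM in WT, is the row where the groups are far apart.

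Family members with other symbols, other inner membrane transporters and iron users of the matrix were counted from a list of 21 genes, of which 18 were tested. None passed by edgeR, DESeq2 or limma-voom, and 3 (Ucp2, Mtch1 and Sfxn5) had an unadjusted p under 0.05 by edgeR, a test that 10.4% of all genes met. Ucp2, an uncoupling-protein relative of the carriers, was at 12.3, 12.4, 10.9, 14.6 and 12.7 CPM in KO livers and 11.1, 9.83 and 9.02 CPM in WT livers, overlapping through KO replicate 3 (adjusted p by edgeR = 0.379). Mtch1, an outer membrane member of the family, was at 62.5, 58.7, 63.6, 67.3 and 68.1 CPM in KO livers and 78.6, 72.0 and 72.7 CPM in WT livers (adjusted p by edgeR = 0.399), while its paralog Mtch2 was at 140 ± 14.3 CPM in KO livers and 141 ± 4.66 CPM in WT livers (SD, n = 5 and 3). Abcb10, which binds and stabilises mitoferrin 1 in red cells, was at 34.5 ± 2.16 CPM in KO livers and 35.7 ± 2.63 CPM in WT livers (adjusted p by edgeR = 0.878). Fech, the ferrochelatase that places iron into heme, had a log2 fold change of 0.00 ± 0.0838 (SE, adjusted p by edgeR = 0.991).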

How the data were processed

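Stranded total RNA libraries depleted of ribosomal RNA were sequenced from 5 KO and 3 WT livers, per the labels' protocols. Per the submitters' processing notes, Novoalign 2.8, mm10 and DESeq2 were used. The sources used here name neither the counting program nor its strand setting. The authors deposited raw read counts per gene, FPKM values, regularised log2 values (not used), log2 fold changes, and for each of these a score that was read as -10 log10 of the adjusted p. Against the same transform of the DESeq2 adjusted p from the counts, this deposited score had a rank correlation of 0.992 across genes. The deposited FPKM values equalled counts divided by gene model length and by table total, up to 1 factor per library, within 1% for 100% of genes above 100 counts. A blank line that held no values was left out.

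Counts were filtered with filterByExpr (min.count 10, min.total.count 15), scaled by TMM and tested two-sided with the quasi-likelihood test of edgeR 4.0.16 in R 4.3.3, group being the only term, with Benjamini-Hochberg adjustment over 14664 genes and a threshold of 0.05. SE is the fold change over the root of F, and intervals use the t quantile of the fit. DESeq2 1.42.0 and limma-voom (limma 3.58.1) were alternatives, with other scalings, no filter, thinning to the smallest library, removal of the length trend, samples left out and a replicate block. On simulated counts the edgeR test and its intervals were checked before use. Those counts had the same spread setting for every gene and no length trend. The check therefore does not show how well the intervals hold for these data. Chi-square of counts between replicates was 28.8 to 79.7 per gene, above sampling noise, so no library was merged. Depth was 24600340 to 43072524 counts, where 1 count is 0.0227 to 0.0404 CPM.

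Members and gene lists were chosen with earlier results of these data known. Every member may be named, but 1 carrier is counted in the totals and not reported by name here. Values per library are given for both mitoferrins, for the 8 other members with the smallest p, for 12 carriers named by role (Slc25a3, Slc25a5, Slc25a13, Slc25a15, Slc25a20, Slc25a25, Slc25a38, Slc25a39, Slc25a40, Slc25a42, Slc25a47 and Slc25a51) and for Slc25a30, chosen after its values were seen. Of the partner list, the 2 genes with the smallest p and Abcb10, Fech and Mtch2 are described. Figures were drawn with matplotlib 3.10.9.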

Additional observations from a re-analysis of the deposited data

Results flagged for a closer look

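In the KO group of 5 libraries, 3 of the 42 tested carriers had a library set apart from the others. The gap was over 0.71 of the group's range. Chance alone passes this limit in about 1 of 20 groups of normally distributed values. The share of all genes past it is not given here, so the count is not shown to be particular to the carriers. For each of these 3 carriers the library was KO replicate 3. For Slc25a20 it was high, at 219 CPM against 93.7 to 119 CPM in the other KO livers and 95.2 to 139 CPM in WT livers, a gap of 0.798 of the range. For Slc25a16 it was high, at 71.5 CPM against 60.5 to 63.0 CPM in the other KO livers and 67.4 to 76.9 CPM in WT livers, a gap of 0.777. For Slc25a53 it was low, at 1.34 CPM against 1.88 to 2.06 CPM in the other KO livers and 1.61 to 2.24 CPM in WT livers, a gap of 0.753.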

How the results depend on the processing

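Slc25a28 passed in all 19 other fits (log2 fold change -4.64 to -4.47). Slc25a37 kept its sign in all of them and passed by DESeq2 alone (log2 fold change -1.09). Its log2 fold change was -1.28 to -0.85 with single libraries left out. No other carrier and no gene of the carrier and partner list passed in any fit. The lowest edgeR adjusted p of another carrier was 0.0983, for Slc25a42 without WT replicate 3. Of 760 estimates for the other carriers 737 stayed within 1 SE of the value reported and 52 changed sign, spread over 20 carriers. The number of genes past the threshold was 16, with DESeq2 257 (150 higher, 107 lower), and 8 to 30 with single libraries left out. It fell to 8 without KO replicate 1 or WT replicate 3 and to 9 without KO replicate 2 or 5, and was 30 without KO replicate 3. The median log2 fold change of the other carriers was -0.0551 (without WT replicate 2) to 0.0181 (without WT replicate 3) with single libraries left out, and 0.0098 without WT replicate 1. KO and WT samples share replicate numbers without a stated pairing. Deviations of samples numbered 1, 2 and 3 from their group means correlated at 0.073, 0.061 and -0.083. Samples with unlike numbers correlated at -0.183 to 0.105. These values show no pairing by number, but with so few samples they cannot exclude one. With a replicate block over replicates 1 to 3 the log2 fold change was -4.62 for Slc25a28 and -1.08 for Slc25a37, and 12 genes passed, against 21 genes without the block in the same samples, a fit added after seeing the data. Depth limits the rarest carriers: Slc25a2, Slc25a35 and Slc25a43 had 78, 63 and 12 counts over the KO libraries.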
